A study of Drosophila melanogaster with 6 samples.

Results

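Transcripts of 9 microtubule-associated protein genes were followed in whole *Drosophila* larvae in which *Dctn1*, the gene for the p150 subunit of the dynein cofactor dynactin, was silenced. The genes were *futsch*, *tau*, *Map205*, *stai*, *shot*, *Patronin*, *chb*, *CLIP-190* and *Eb1*. They were chosen by name, each matched 1 row of the deposited table by its symbol, and together they make up 9 of the 13858 genes listed there. The gene ontology terms in the table contained the letters "microtubule" for 9 of 9 of these genes and for 2.51% of all genes.

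RNA-seq compared 3 libraries of *Dctn1* knockdown larvae with 3 libraries of driver only control larvae, and the comparison asks which transcripts respond to the loss of *Dctn1*. Each library was a pool of 12 to 15 whole female L3b larvae kept on grape agar with yeast, aged 96 h (from hatching in the labels, from egg laying in the study's methods). Both groups carried the ubiquitous driver *Act5C*-GAL4, and the knockdown larvae also carried 1 UAS-*Dctn1*-RNAi transgene, with no second RNAi line in these libraries. By their labels, the knockdown libraries are replicates 1, 2 and 3 and the controls replicates 2, 3 and 4, which leaves unsaid whether a shared number marks a shared cross or day. The p-values therefore measure the spread between these pools.

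Microtubules are polar polymers of tubulin, with a dynamic plus end and a slower minus end. Microtubule-associated proteins bind the lattice, cap or track an end, or hold free tubulin, and so set how stable the tracks are and where they run. Dynactin meets this system directly, since p150 has a CAP-Gly domain that binds microtubules and end-binding proteins, and in motor neurons and muscle the tracks carry the cargo of dynein and kinesin motors.

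Values are FPKM as deposited, that is, fragments scaled to transcript length and to the mapped total of the library. The 9978 genes whose FPKM averaged 0.5 or more were tested with limma on log2(FPKM + 0.1), a scale on which the change of low genes is understated. A gene was called at an adjusted p under 0.05 (Benjamini-Hochberg, over all 9978 genes), and all 9 genes passed the filter on low values. In a comparison of 3 libraries with 3, an exact permutation test cannot give a p below 0.1. Read counts were not analysed here, so the depth of each library is unknown. The summed FPKM of a library was between 94.2% and 107% of the mean over libraries. Over all tested genes the median log2 fold change was 0.16, and median-of-ratios scaling of the libraries, which lowers fold changes by 0.18 on the log2 scale, brought it to -0.01. For the 9 genes and the calls on other named genes, the effect of this scaling is given where it ends a call, turns a direction or changes an overlap.

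The targeted gene was lower in every knockdown library. *Dctn1*, listed as DCTN1-p150, had an FPKM of 15.3, 15.2 and 12.5 in driver only control replicates 2, 3 and 4, against 7.33, 7.96 and 6.85 in knockdown replicates 1, 2 and 3. It fell to 51.5% of the control mean (log2 fold change -0.94, standard error 0.13, adjusted p = 0.00737, limma with Benjamini-Hochberg adjustment). All of the 14 muscle, 14 neuronal and 10 fat body markers passed the filter on low values, as did 9978 of the 13858 genes. By contrast, 0 of 10 female germ line markers passed it. The summed FPKM of muscle markers was lowest in control replicate 3, at 11370 against 15070 to 20480 in the other libraries.

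Of the 9 genes, *CLIP-190* alone passed the test, and it rose in the knockdown larvae, a call that was lost after median-of-ratios scaling. Thus 1 gene was called higher and 0 lower (limma), against 5.06% of all tested genes called higher, 1.65% called lower and 6.71% called in either direction. At an unadjusted p under 0.05 there were 4 of the 9 genes (*CLIP-190*, *tau*, *Map205* and *chb*), and 25.3% of all tested genes. The log2 fold change was above 0 for 5 genes and below 0 for 4, with a median of 0.07 against 0.16 for all genes. No gene reached an absolute log2 fold change of 1.

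**Figure D1:**
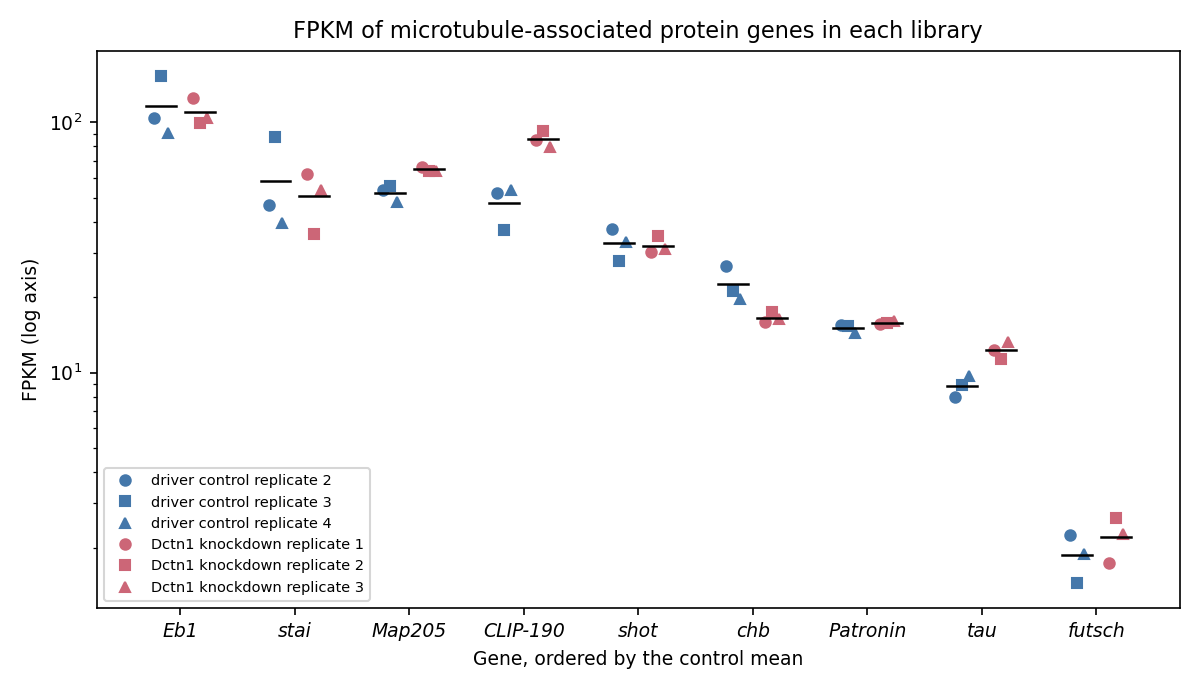
FPKM (log axis) of the 9 genes in each of the 3 driver only control libraries (blue) and the 3 *Dctn1* knockdown libraries (red), with black lines at the group means. The knockdown libraries of *CLIP-190* lie between 79.6 and 91.9 and the control libraries between 37.1 and 53.4, whereas the groups overlap for *Eb1*, *stai*, *shot* and *futsch*.

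The genes that act at the growing plus end had log2 fold changes of 0.86 (*CLIP-190*), -0.43 (*chb*) and -0.05 (*Eb1*). *CLIP-190* (gene ID 35042) encodes the fly counterpart of mammalian CLIP-170, a CAP-Gly protein that tracks plus ends, and lies on chromosome arm 2L from 17384700 to 17409698 on the forward strand of BDGP6.54, the build of all positions given here. Its FPKM was 52.1, 37.1 and 53.4 in driver only control replicates 2, 3 and 4, against 84.9, 91.9 and 79.6 in knockdown replicates 1, 2 and 3. Every knockdown library was above every control library, and control replicate 3 was the lowest of the 6. The means were 47.5 ± 9.04 (SD, n = 3) and 85.5 ± 6.20 (SD, n = 3), a ratio of 1.80. The log2 fold change was 0.86 (standard error 0.16, 95% interval 0.48 to 1.24), with an adjusted p of 0.0240 from limma with Benjamini-Hochberg adjustment. *CLIP-190* ranked at position 377 of the 9978 genes from the largest increase down.

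The call on *CLIP-190* was not stable. After median-of-ratios scaling the log2 fold change was 0.68 and the adjusted p from limma 0.131, although all knockdown libraries were still above all control libraries. With a library left out in turn, the log2 fold change stayed between 0.69 and 0.95. The call was kept without control replicate 3 or 4 and lost without control replicate 2 (limma adjusted p = 0.0583) or without knockdown replicate 1, 2 or 3 (0.0723, 0.0815 and 0.0577).

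*chb* (gene ID 43901) encodes the fly CLASP, which binds plus ends and slows their shrinkage, and lies on 3L from 21172853 to 21183278. Its FPKM was 26.8, 21.1 and 19.6 in the controls against 15.9, 17.4 and 16.4 in the knockdown libraries, in the order above. All 3 knockdown libraries were below all 3 control libraries, and the controls were the more spread out. The knockdown mean was 73.6% of the control mean (log2 fold change -0.43, standard error 0.14, 95% interval -0.75 to -0.10), and limma with Benjamini-Hochberg adjustment gave an adjusted p of 0.112. Scaling moved *chb* away from 0, to a log2 fold change of -0.61 with a limma adjusted p of 0.0533, since it lowers all fold changes alike.

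*Eb1* (gene ID 35584), on chromosome arm 2R, encodes the end-binding protein that recruits many plus-end trackers, and it was the most abundant of the 9 transcripts in both groups. Its FPKM was 103.9, 153 and 90.5 in the controls against 125, 99.0 and 103.98 in the knockdown libraries. Control replicate 3 was the highest, control replicate 4 was the lowest, and the groups overlapped. Its log2 fold change was -0.05 (standard error 0.21), and the 95% interval from -0.53 to 0.42 leaves room for changes of either sign.

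Compared with each other inside a library, which removes any scaling between libraries, *CLIP-190* stood higher against both other plus-end genes in every knockdown library. The ratio of *CLIP-190* to *chb* was 1.95, 1.76 and 2.72 in the controls against 5.33, 5.29 and 4.86 in the knockdown libraries. The means were 2.14 ± 0.508 and 5.16 ± 0.258 (SD, n = 3 each), a 2.41-fold difference with no overlap. The ratio of *CLIP-190* to *Eb1* was 0.502, 0.243 and 0.590 in the controls and 0.678, 0.929 and 0.765 in the knockdown, also without overlap. The third pair, *chb* to *Eb1*, overlapped, at 0.257, 0.138 and 0.217 in the controls and 0.127, 0.176 and 0.157 in the knockdown. The pairs were picked after their values had been seen and carry no test.

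**Figure D2:**
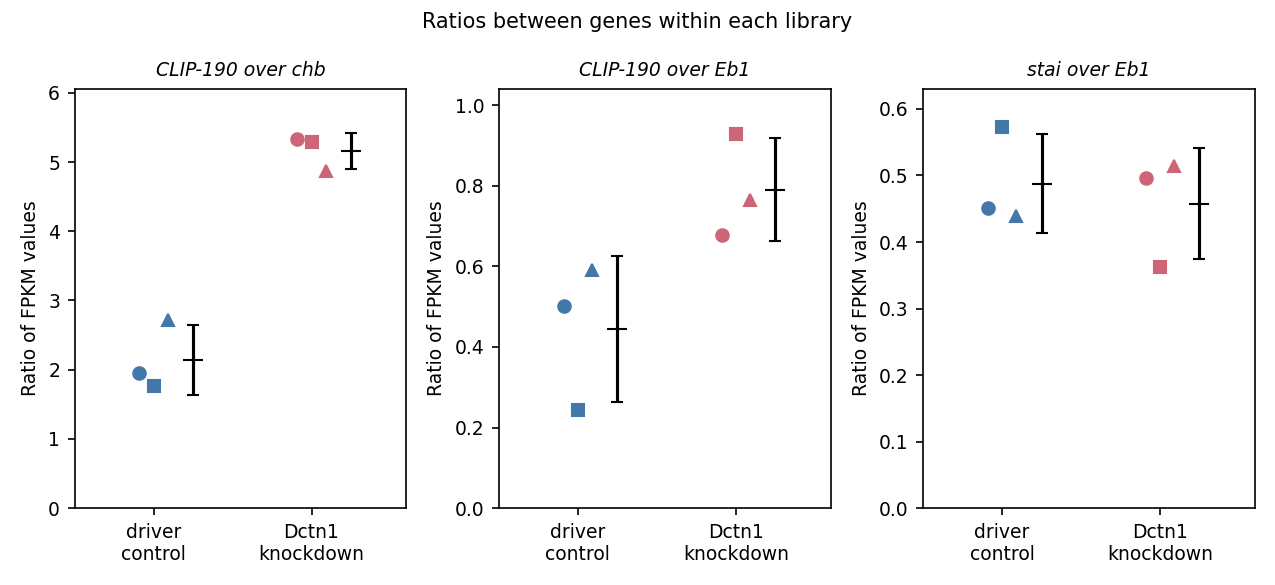
Ratios of FPKM values between genes inside each library, for *CLIP-190* over *chb*, *CLIP-190* over *Eb1* and *stai* over *Eb1*. Points are libraries (circle, square and triangle for control replicates 2, 3 and 4 in blue and knockdown replicates 1, 2 and 3 in red), and bars are the mean and SD of 3 libraries. The groups are apart in the first pair, at 1.76 to 2.72 against 4.86 to 5.33, and overlap in the last.

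*Patronin* (gene ID 36978), on 2R, encodes the fly CAMSAP protein, which binds and protects minus ends. Its FPKM was 15.5, 15.4 and 14.4 in the controls against 15.6, 15.8 and 16.1 in the knockdown libraries. The groups did not overlap but nearly touched, with the highest control library at 15.5 and the lowest knockdown library at 15.6. With deposited values, the log2 fold change was 0.07 (95% interval -0.17 to 0.31) and turned to -0.11 after scaling, when the groups overlapped. *Patronin* was the steadiest of the 9 transcripts between replicates. Its standard deviation within groups was 0.0452 on the log2 scale, at percentile 0.772 of all tested genes, whose median was 0.196.

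Among the proteins that bind along the lattice, *Map205* and *tau* had higher values in every knockdown library without passing the test. *Map205* (gene ID 43765) encodes a large microtubule-binding protein that in the fly also binds the mitotic kinase Polo, and lies on 3R from 32055279 to 32068441. Its FPKM was 53.4, 55.6 and 48.0 in the controls against 66.2, 63.9 and 64.0 in the knockdown libraries. The groups did not overlap with or without scaling. The log2 fold change was 0.31 (standard error 0.11, 95% interval 0.04 to 0.57), and the adjusted p was 0.144 (limma with Benjamini-Hochberg adjustment). After scaling it was 0.13, with a limma adjusted p of 0.48.

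*tau* (gene ID 326116) encodes the fly member of the Tau family of axonal microtubule stabilisers, which aggregate in human tauopathies, and lies on 3R from 27639886 to 27656996. Its FPKM was 8.0, 8.92 and 9.70 in the controls against 12.3, 11.4 and 13.3 in the knockdown libraries. The lowest knockdown library was above the highest control library, but the groups overlapped after scaling. The log2 fold change was 0.47 (standard error 0.13, 95% interval 0.18 to 0.76), with an adjusted p of 0.0694, or 0.29 with an adjusted p of 0.323 after scaling (limma with Benjamini-Hochberg adjustment).

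*futsch* (gene ID 5740544) encodes the fly MAP1B-related protein of axons and motor nerve endings, and lies on the X chromosome from 1409069 to 1453686. It was the scarcest of the 9 transcripts in every library, with an FPKM of 2.25, 1.45 and 1.89 in the controls against 1.74, 2.62 and 2.27 in the knockdown libraries. The groups overlapped, with control replicate 3 and knockdown replicate 1 at the low end. For *futsch*, the log2 fold change was 0.24 with a 95% interval from -0.27 to 0.74. The annotation places 1186 exonic bases of the receptor gene *Gr2a* on the same strand under *futsch*, and *Gr2a* itself had a mean FPKM of 0.0067.

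*shot* (gene ID 36542) encodes the spectraplakin that links microtubules to actin, and lies on 2R. Its FPKM was 37.5, 27.8 and 33.2 in the controls against 30.2, 35.1 and 31.1 in the knockdown libraries. The controls reached both further up and further down than the knockdown libraries. Its log2 fold change was -0.02 (95% interval -0.35 to 0.31), and -0.20 after scaling with a limma adjusted p of 0.525.

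*stai* (gene ID 33863) encodes stathmin, which binds free tubulin dimers and whose loss weakens axons and nerve endings in the fly, and lies on 2L from 6100377 to 6124653. Its FPKM was 46.9, 87.5 and 39.7 in the controls against 62.3, 35.8 and 53.5 in the knockdown libraries. The groups overlapped, with the whole range set by control replicate 3 at the top and knockdown replicate 2 at the bottom. The coefficient of variation among controls was 44.4%, and the standard deviation within groups was 0.514 on the log2 scale, at percentile 93.2 of all genes. The log2 fold change was -0.15 with a 95% interval from -0.97 to 0.67, the widest of the 9 genes.

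Between all control and all knockdown libraries, 4 of the 9 genes were higher without overlap and 1 was lower, against 28.8% and 4.66% of all tested genes. After median-of-ratios scaling, 2 genes (*CLIP-190* and *Map205*) were higher and 1 (*chb*) was lower without overlap, against 13.5% and 13.0% of all genes. None of the 9 was then called by limma, 2 had an unadjusted p under 0.05, and 4 had a log2 fold change above 0.

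**Figure D3:**
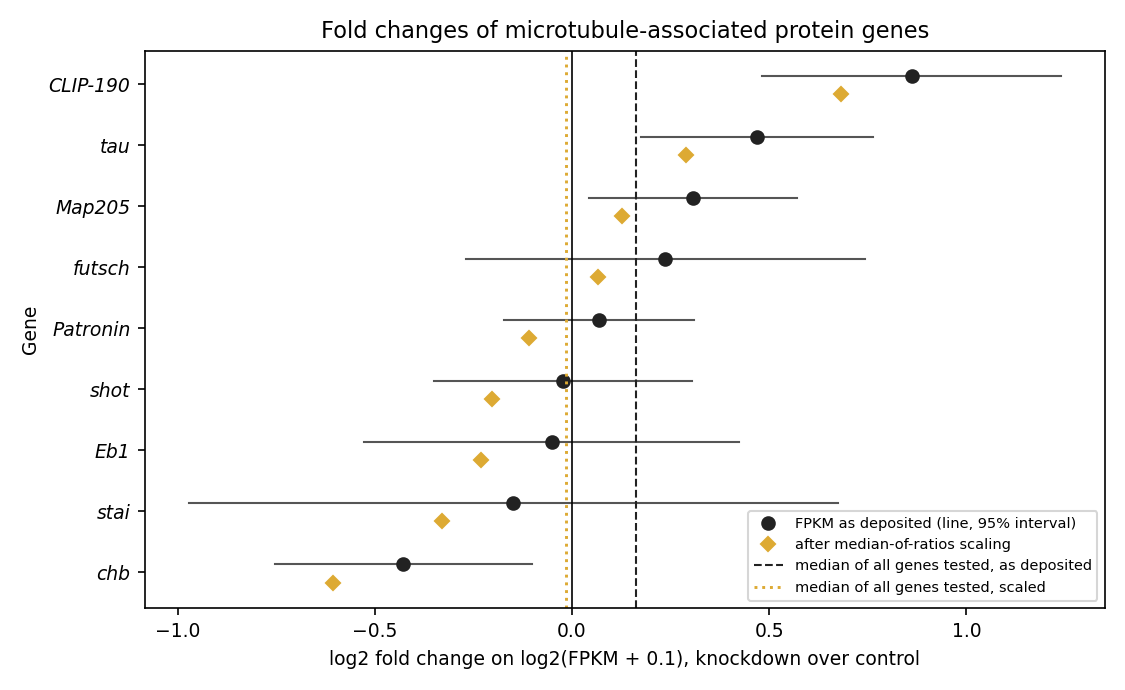
Log2 fold changes of the 9 genes, knockdown over control, with FPKM as deposited (black, with 95% intervals) and after median-of-ratios scaling (yellow, points only). Vertical lines mark 0 and the medians of all tested genes, at 0.16 as deposited and -0.01 after scaling. The intervals of *CLIP-190* (0.48 to 1.24), *tau*, *Map205* and *chb* do not reach 0, although limma called only *CLIP-190* after adjustment over all genes.

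In the controls the transcripts ran from *Eb1* (mean FPKM 116) through *stai* (58.0), *Map205* (52.4), *CLIP-190* (47.5), *shot* (32.8), *chb* (22.5), *Patronin* (15.1) and *tau* (8.87) to *futsch* (1.86). FPKM is a level per transcript length, so these values can be set against each other. The libraries of *stai*, *Map205*, *CLIP-190* and *shot* overlapped between neighbours in this order, and those of the other neighbours did not. In the knockdown *CLIP-190* stood at the second place, and all of its libraries were above all *Map205* libraries (63.9 to 66.2). There *chb* and *Patronin* overlapped, at means of 16.6 and 15.8, while in the controls every *chb* library was above every *Patronin* library.

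The summed FPKM of the 9 genes was 346, 408 and 310 in the controls against 414, 373 and 380 in the knockdown libraries, and the groups overlapped (exact permutation test, two-sided, p = 0.4). This overlap rested on *Eb1*. Without *Eb1* the sum was 219.9 to 254.9 in the controls and 273.9 to 289.1 in the knockdown, without overlap. After median-of-ratios scaling it was 247.7 to 257.4 and 258.8 to 267.0, still without overlap. That smaller sum includes *CLIP-190*. Within the sum of all 9 genes the makeup differed. *CLIP-190* made up 15.1%, 9.11% and 17.2% of it in the controls against 20.5%, 24.6% and 20.9% in the knockdown libraries, so every knockdown share was above every control share. The mean share was 13.8% ± 4.19 in controls and 22.0% ± 2.29 in the knockdown (SD, n = 3 each; exact permutation test, p = 0.1, the lowest this design can give). *Map205* took 14.9% ± 1.04 and 16.7% ± 0.603, and *chb* took 6.41% ± 1.28 and 4.27% ± 0.411 (SD, n = 3 each), both again without overlap and at the same smallest exact p of 0.1. The share of *Eb1* was 32.2% and 28.1% on average and overlapped (exact permutation test, p = 0.3). The shares of *futsch*, *tau*, *stai*, *shot* and *Patronin* overlapped as well, with exact permutation p from 0.3 to 0.7. Shares in 1 library add to 100%, so they do not vary independently, and no p can pass 0.05 in this design.

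**Figure D4:**
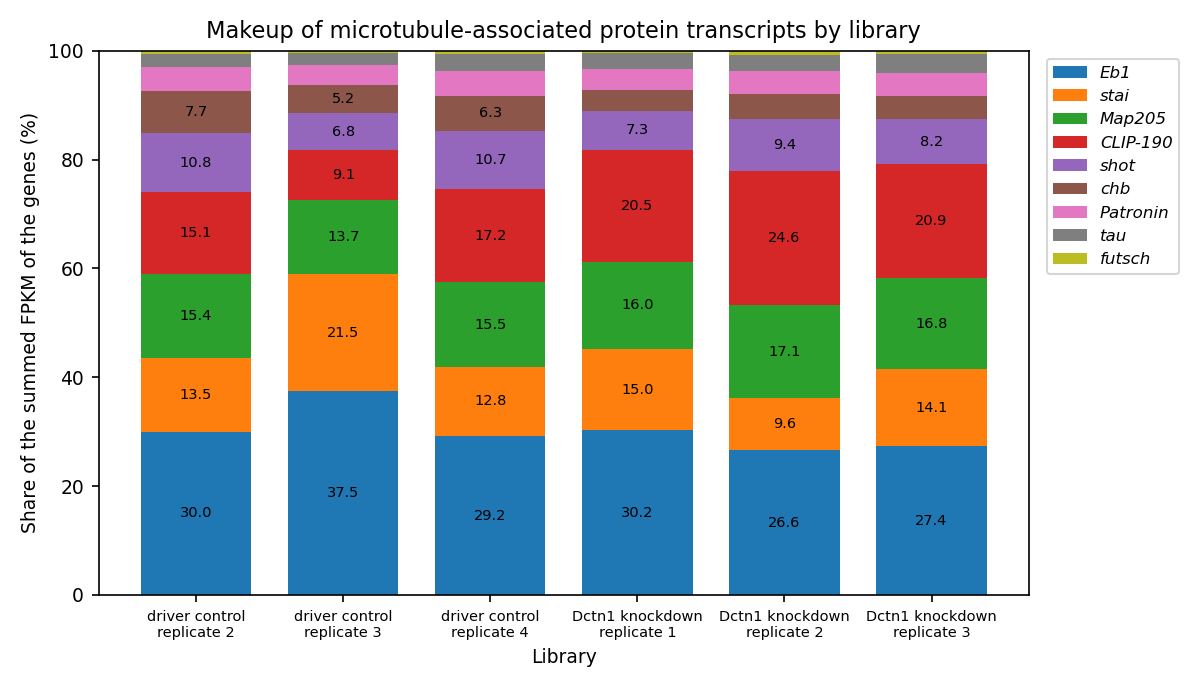
Percent of the summed FPKM of the 9 genes that each gene takes in each library, stacked to 100%, with shares above 5% printed. *CLIP-190* (red) takes 9.11% to 17.2% in the driver only control libraries and 20.5% to 24.6% in the *Dctn1* knockdown libraries, and *chb* (brown) takes less in every knockdown library.

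The spread within groups was not shared evenly by the 9 genes. Relative to its group mean on the log2 scale, control replicate 3 stood 0.68 higher for *stai* and 0.44 higher for *Eb1*, and 0.34 lower for *CLIP-190*, 0.32 lower for *futsch* and 0.23 lower for *shot*. Knockdown replicate 1 stood 0.34 higher for *stai*, 0.20 higher for *Eb1* and 0.31 lower for *futsch*. The same pair of libraries deviated together over all 9978 genes (Pearson's r = 0.63 across genes, which are not independent replicates), and control replicate 3 deviated against knockdown replicate 2 (r = -0.62). Control replicate 3 also had the lowest sum of muscle markers. Its sum of glial markers was the highest, at 469 FPKM against 236 to 350 in the other libraries, but this rested on *Gs2*, since without that gene the sum was 93.2 FPKM, between the other controls (81.6 and 82.0) and the knockdown libraries (94.5 to 97.2). The part of tissue makeup in these deviations was not tested.

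**Figure D5:**
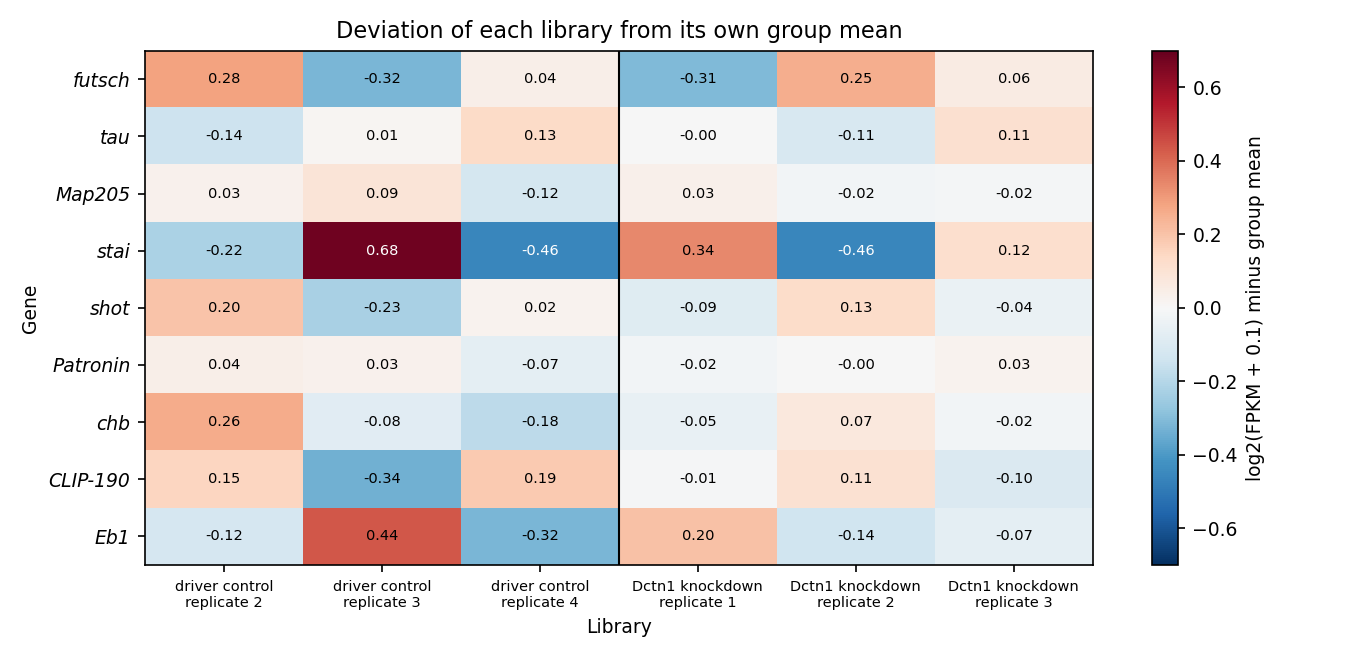
Deviation of each library from its own group mean on the log2(FPKM + 0.1) scale, for the 9 genes (rows) and 6 libraries (columns), red for higher and blue for lower. Control replicate 3 and knockdown replicate 1 are both high for *stai* (0.68 and 0.34) and *Eb1* (0.44 and 0.20) and low for *futsch*, while *Patronin*, *Map205* and *tau* vary little.

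The genes with the most similar pattern over the 6 libraries were taken from the 7148 genes averaging an FPKM of 5 or more, by the mean absolute difference of log2 values after centring each gene. For *CLIP-190* they were *CG8206* and *CG14237*, which differed from it by 0.06 on average where its own deviations averaged 0.43. For *stai* they were *pain* (0.03 against 0.35) and *Swip-1*, with *pain* at 19.2 FPKM in control replicate 3 and 7.87 to 13.8 in the others. For *tau* they were *CG3812* and *laza*, for *chb* *CG17032* and *Lpin*, for *Map205* *CG10103* and *CG33932*, and for *Eb1* *CG32243* and *mth*. Those of *futsch* were *CG11340* and *Gyc76C*, those of *shot* *CG17896* and *alpha-Est10*, and those of *Patronin* *Strica* and *CG14450*. Likeness was the basis of this choice and carries no test.

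Calls on other genes of the microtubule system are given list by list, beside the 6.71% of all genes called. The lists are too short to tell their shares from that background. Of 12 tested genes for other microtubule-binding proteins, 1 was called higher and 0 lower, with a median log2 fold change of 0.17 (limma; 2 at an unadjusted p under 0.05). It was *pigs*, which encodes a Gas2-like protein, with an FPKM of 8.80, 10.1 and 9.35 in the controls and 15.0, 17.2 and 14.6 in the knockdown. Its log2 fold change was 0.72 with an adjusted p of 0.0148, and 0.54 with an adjusted p of 0.0623 after scaling (limma with Benjamini-Hochberg adjustment). The call was also lost without control replicate 2 or knockdown replicate 1 or 2 (limma adjusted p = 0.0628, 0.0507 and 0.0717). Of the 6 tested CAP-Gly genes outside the 9, that is, without *CLIP-190*, *Dctn1* was the only one called. The other tested members of this list had log2 fold changes of at most 0.21.

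In the dynein motor and the rest of dynactin, 2 of 17 tested genes were called higher and 0 lower, with a median of 0.13. The summed FPKM of these genes was 789 to 882 in the controls and 912 to 960 in the knockdown, without overlap. After median-of-ratios scaling the sums overlapped, at 861 to 924 and 859 to 886. The dynein regulator *nudE* had a log2 fold change of 0.67 and the light intermediate chain gene *Dlic* one of 0.57, with adjusted p of 0.0150 and 0.0202. After scaling neither was called (0.49 and 0.39, adjusted p = 0.101 and 0.116, limma with Benjamini-Hochberg adjustment). Both calls were also lost without control replicate 2 and without any 1 of the knockdown replicates, with adjusted p of 0.0510 to 0.0717 for *nudE* and 0.0634 to 0.0895 for *Dlic* (limma).

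No gene was called by limma among 7 tubulins, 21 kinesins, 9 kinases that act on microtubule-associated proteins, 8 tubulin modification and folding genes, 5 severing enzyme genes and 8 augmin genes, where 1, 2, 3, 1, 1 and 0 genes had an unadjusted p under 0.05. The lowest adjusted p among them were those of *betaTub97EF* (log2 fold change 0.51, adjusted p = 0.122), the kinesin-8 gene *Klp67A* (-1.03, 0.149), the kinase gene *par-1* (0.32, 0.118), the deacetylase gene *HDAC6* (0.41, 0.149), the katanin-like gene *kat-60L1* (0.44, 0.197) and *dgt6* of augmin (0.36, 0.354). The medians of these lists lay between -0.01 and 0.18 on the log2 scale. As deposited, the summed FPKM of each list overlapped between the groups. After median-of-ratios scaling, 3 of these sums were lower in the knockdown without overlap. They were those of the tubulins (1712 to 1854 against 1572 to 1652), the kinesins (228 to 244 against 211 to 215) and the severing enzymes (36.8 to 40.9 against 30.7 to 36.5). The sums of the other lists still overlapped. For the kinases and the tubulin modification and folding genes, the overlap as deposited rested on the most abundant gene of the list. Without it the kinases summed to 177.2 to 202.4 in the controls and 214.8 to 219.1 in the knockdown. The tubulin modification and folding genes then summed to 90.19 to 111.7 and 115.7 to 131.4. After median-of-ratios scaling both of these reduced sums overlapped.

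Whole larvae mix many tissues, so more RNA per cell and more cells of a type cannot be told apart in these values. The 14 neuronal markers summed to 84.3 to 89.4 FPKM in the controls and 93.2 to 114 in the knockdown, without overlap. After median-of-ratios scaling the sums overlapped, at 85.0 to 99.3 and 83.4 to 110.4 FPKM. None of the 14 was called by limma (6 at an unadjusted p under 0.05), their median log2 fold change was 0.38 as deposited and 0.21 after scaling, and *Syt1*, the synaptic vesicle calcium sensor, had the lowest adjusted p of 0.0700 at a log2 fold change of 0.40. Of the 9 genes, *futsch*, *tau*, *stai* and *Patronin* had gene ontology terms containing the letters "neuro". Their log2 fold changes were 0.24, 0.47, -0.15 and 0.07 as deposited and 0.07, 0.29, -0.33 and -0.11 after scaling. For *CLIP-190*, which had no such term, the values were 0.86 and 0.68. Terms containing the letters "axon" were however listed for *CLIP-190*, as for *futsch*, *tau*, *shot*, *chb* and *Eb1*. These were 6 of the 9 genes, against 3.88% of all genes. The part of neuronal RNA in the values of these genes was not tested. Of 8 glial markers 1 was called higher and 0 lower by limma (4 higher and 1 lower at an unadjusted p under 0.05). Their log2 fold changes ran from -0.52 to 0.70, with a median of 0.32 as deposited and 0.14 after scaling. The called marker was *Eaat1*, at 0.70 with an adjusted p of 0.0184 (limma with Benjamini-Hochberg adjustment). *Eaat1* was not called after scaling (0.52, adjusted p = 0.101) or without control replicate 2 or knockdown replicate 1 or 2 (0.0735, 0.0573 and 0.0819).

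The other marker lists were read only for the tissue makeup of the pools, with limma calls and unadjusted p under 0.05 counted as for the 9 genes. Of 17 markers of proliferating cells 0 were called (1 higher at an unadjusted p), with a median log2 fold change of 0.08 that turned to -0.10 after scaling. Of 11 midgut markers, *Npc2c* was called higher and *betaTry*, *Jon99Ci*, *Amy-p* and *Amy-d* lower (2 higher and 7 lower unadjusted), and the call on *Jon99Ci* was lost after scaling. They summed to 26290 to 41700 FPKM in the controls and 19060 to 23550 in the knockdown, and the groups stayed apart after scaling. Of 11 salivary gland markers, *ng1* and *ng3* were called higher and 0 lower (2 higher and 3 lower unadjusted), with a median of -1.06 and sums of 10930 to 27900 against 6281 to 13450 FPKM. Of 10 fat body markers, *Lsp1beta* was called higher and 0 lower (3 and 3 unadjusted), with a median of -0.10. Of 2 tested testis and male markers, *mia* was called higher. The salivary gland, fat body and testis calls were all lost after scaling. These calls and that on *Jon99Ci* were also lost without control replicate 2 or without knockdown replicate 2 (limma adjusted p from 0.0878 to 0.180). Among 14 muscle, 9 epidermal and tracheal and 11 hemocyte markers 0 were called (0, 0 and 3 higher unadjusted), and 0 of 10 female germ line markers reached the minimum FPKM for a test. The part of these tissues in the values of the 9 genes was not tested.

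Several of these genes have many transcripts, which the gene-level FPKM adds up. The table lists 44 transcripts for *Patronin*, 34 for *shot*, 26 for *CLIP-190* and 16 for *tau*, against a median of 2 over all genes, and 31, 12, 12 and 3 of these were added by the sequencing centre. *Dctn1* has 1 listed transcript. A switch between transcripts of 1 gene would not be visible in these values. Exons of *CLIP-190*, *Patronin* and *Eb1* overlap genes on the opposite strand by 1, 4 and 5 bases.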

How the data were processed

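RNA from whole female larvae was sequenced as 100 bp paired reads. According to the paper, SOAPnuke served as read filter, HISAT2 as aligner and RSEM for quantification. The authors deposited 1 FPKM value per gene and library, rounded to 2 decimals. Tool versions and the genome build are not given in the sources used here. The submitters' processing notes also name StringTie, Cufflinks, GATK and DESeq2. Nearly silent genes gave pairwise depth ratios of 0.953 to 1.05, shared by a minority of genes. These ratios lie no further from 1 than the width of the window used to find them. They do not measure depth, which remains unknown. No per-sample column was left out.

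FPKM was fitted on log2(FPKM + 0.1) with limma version 3.58.1 (R version 4.3.3), with trended and robust variance and the condition as the only term, for genes averaging an FPKM of 0.5 or more, with Benjamini-Hochberg adjustment. The fit was tested on simulated data. Exact permutation tests were two-sided. Alternatives were pseudocounts of 1 and 0.01, no filter or a minimum mean of 5 FPKM, median-of-ratios and quantile scaling, ordinary variance, sample weights, a replicate block, each library left out, a DEG rule (absolute log2 fold change above 1), limma's TREAT at 1.5-fold, and shares without *Eb1*.

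The 9 genes and all gene lists were chosen with earlier results of these data known. Beyond the 9 genes, those named are *Dctn1*, the 2 closest genes in pattern for each, and from each list the called genes or, for the microtubule system and the neuronal list, else the gene with the lowest adjusted p. Other markers are given by counts or sums. Positions are from the BDGP6.54 annotation, since the table gives none. Python version 3.11.15, NumPy version 2.4.6, pandas version 2.3.3 and Matplotlib version 3.10.9 were used.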

Additional observations from a re-analysis of the deposited data

How the results depend on the processing

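Of 143 alternative values for the 9 genes, 124 kept their direction and their side of the threshold. For genes that were not called this was partly settled beforehand, since TREAT cannot call a gene that limma did not call. Over all genes, 670 were called, but 321 after median-of-ratios scaling, 315 after quantile normalization, 1764 with sample weights (which gave control replicate 2 a weight of 4.68 and the others 0.341 to 1.19), 290 by the DEG rule, and 265 to 458 with a library left out, lowest without knockdown replicate 2. Of all calls, 75.4% were increases, and 50.2% after median-of-ratios scaling. Of the 9 genes, 1 was called, 0 after either scaling and by the DEG rule, 3 with sample weights, and 0 to 1 with a library left out. *CLIP-190* kept its call in 9 of 16 alternatives, with an adjusted p from limma of 0.00636 to 0.131 outside TREAT. Its log2 fold change was 0.68 after median-of-ratios scaling, 0.82 after quantile normalization and 0.69 to 0.95 with a library left out, and against a 1.5-fold change (TREAT) it was not called at 0.86, nor was *Dctn1* at -0.94. With sample weights *tau* (0.57) and *chb* (-0.63) were called and *Eb1* turned to 0.023. *Patronin* turned to -0.11 and -0.077 under median-of-ratios and quantile scaling. With a library left out, the log2 fold change of *stai* ran from -0.38 to 0.19, of *shot* from -0.14 to 0.078 and of *Eb1* from -0.21 to 0.17, and the difference in the share of *futsch* from -0.0562 to 0.112 percentage points, the signs turning without control replicate 3 or knockdown replicate 2 for *stai*, *Eb1* and *futsch*, and without control replicate 2 or knockdown replicate 1 for *shot*. The cause of these changes was not tested. *futsch* has no value at a mean FPKM of at least 5.

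Only replicate numbers 2 and 3 occur in both groups. Deviations of same-numbered libraries correlated at 0.40 and 0.14 across genes. Control replicate 2 correlated best with knockdown replicate 2 (0.40, against -0.29 and -0.22), but control replicate 3 with knockdown replicate 1 (0.63). The deviations are centred within each group, so these correlations constrain each other and cannot settle whether the libraries are paired. The main fit does not pair them. With the replicate block, which estimates the change from numbers 2 and 3 alone, 640 genes and 1 of the 9 were called. *CLIP-190* was called at 0.96 (adjusted p = 0.0395, limma), and *shot* turned to 0.033. The block moved *stai* from -0.15 to -0.55 (limma adjusted p = 0.0951) and *Eb1* from -0.05 to -0.31 (0.298), the largest moves among the 9. The calls on *pigs*, *Dlic* and *Eaat1* were lost under the block (adjusted p = 0.0628, 0.0629 and 0.0515, limma), as were those on *Amy-p*, *Amy-d*, *Jon99Ci*, *ng3* and *mia*, and *Klp67A* was called at -1.65. *Klp67A* was also called with sample weights (-1.28, limma adjusted p = 0.0395) and without knockdown replicate 1 (-1.39, 0.0388). Sample weights, under which 1764 genes were called, also gave calls on *par-1*, *betaTub97EF* and *Syt1*.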
